A study of Mus musculus with 27 samples.

Results

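Core cardiomyocyte transcription factors are the proteins that switch on and maintain the contractile gene programme of heart muscle. The genes described here are Nkx2-5, Mef2a, Mef2c, Mef2d, Srf, Myocd, Smyd1 and Hopx, 8 of 24025 genes in a bulk RNA table and 8 of 19010 gene symbols in a single-cell table, taken by name and not by their values. The tables come from mouse hearts with deletions of Hand2os1 (Hand2as, Uph), a gene whose RNA codes for no protein and which is the neighbour of Hand2, itself a regulator of heart development. All mice were C57BL/6. Allele F removes the gene over its full length and allele D removes its 3' distal end.

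At E11.5 (E for embryonic day) whole hearts were measured, 3 heterozygous F/+ as control and 3 homozygous F/F. At E16.5 the tissue was ventricle, again 3 F/+ and 3 F/F. At 8 weeks it was cardiomyocytes, from 5 wild type (+/+), 2 heterozygous D/+ and 6 homozygous D/D samples. The F controls therefore carry a deletion on 1 chromosome. A pair of single-cell libraries, 1 from +/+ and 1 from F/F hearts at E11.5, each combined living cells of 6 hearts that had been dissociated with trypsin and sorted after 7-Aminoactinomycin D staining. No Cre or transgene is named for any group, so the deletions are not stated to be limited to heart muscle. The labels do not say whether replicate libraries came from separate animals, so each p-value measures only the spread between these libraries.

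Nkx2-5 is a homeobox factor that acts from the first heart progenitors onward, and its loss halts heart development. Mef2a, Mef2c and Mef2d are MADS-box factors that bind AT-rich sites in muscle genes and are held in check by class II histone deacetylases. Serum response factor, the product of Srf, is another MADS-box factor. It binds a motif called the CArG box and drives muscle genes when joined by its coactivator myocardin, the product of Myocd. Smyd1 is a muscle-restricted methyltransferase needed for ventricular growth. Hopx is a small homeodomain protein that does not bind DNA itself, acts downstream of Nkx2-5 and restrains serum response factor.

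Because several of these factors are known to act on one another's genes, the 300-base windows around their transcription start sites were searched on both strands for a CArG box, a MEF2 site and AAGTG, the core of the motif that Nkx2-5 binds. RefSeq windows (GRCm38.p6) were found for 7 of the 8 genes, 10 windows in all. Myocd had none. CArG boxes lay in 2 of the 10 windows, of 2 genes, against 1.63% of 32851 windows of all genes. A MEF2 site lay in 1 of the 10, against 3.19%, and AAGTG in 6 of the 10, of 4 genes, against 46.4%. Windows of 1 gene are not independent. The motifs do not overlap in the windows printed. The 3 stretches with a CArG box or MEF2 site are shown because they place a binding motif of 1 group of factors beside the start of another or of its own gene. Capitals mark the motif, and positions count from the start site.

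Srf: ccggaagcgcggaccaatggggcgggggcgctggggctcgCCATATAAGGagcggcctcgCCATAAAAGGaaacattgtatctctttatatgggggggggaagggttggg

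Hopx: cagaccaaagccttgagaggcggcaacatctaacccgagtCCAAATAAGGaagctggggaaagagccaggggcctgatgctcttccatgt

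Mef2a: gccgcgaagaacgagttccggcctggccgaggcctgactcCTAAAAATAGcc

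The Srf stretch is chr17:46556175-46556284 on the minus strand, and its pair of CArG boxes begin 82 and 62 bases upstream of the start. The Hopx stretch is chr5:77115157-77115246 on the minus strand, with a CArG box that begins 83 bases upstream. The Mef2a stretch is chr7:67372849-67372900 on the minus strand, and its MEF2 site spans the start, beginning 2 bases upstream. A match is a description of these letters and not a site shown to be bound in these samples.

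Bulk values were FPKM, a read or fragment count scaled by transcript length and library total, so levels can be set side by side between genes, and the read depth behind them is unknown. Columns summed to between 334194 and 586795 FPKM, with 9495 to 11641 genes at 1 FPKM or more. The haemoglobin share of the FPKM was 10.4% to 29.7% at E11.5 and 2.42% or less from E16.5 onward. No E11.5 library had a value above 0 for the targeted gene (6 of 6 at 0), so it does not check their labels. It was above 0 in 3 of 3 F/+ and 0 of 3 F/F libraries at E16.5, in 4 of 5 +/+ and 2 of 2 D/+ libraries at 8 weeks, and in 3 of 6 D/D libraries, whose distal deletion may leave reads. The library labelled +/+ replicate 5 was listed at 0, against its label, and results that rest on it are given without it where that changes them. The 11 cardiomyocyte markers, among them Tnnt2, Actn2 and Ttn, were detected in every group. Their FPKM summed to 12960 to 15770 in F/+ hearts at E11.5, 18970 to 21310 in F/+ ventricles at E16.5 and 34400 to 39060 in +/+ cardiomyocytes at 8 weeks.

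All 8 genes had values above 1 FPKM in every library. Mef2c was the lowest of them in all 7 groups by mean FPKM, and Myocd the next lowest. Nkx2-5 led at E11.5, with 112 ± 25.8 FPKM (SD, n = 3) in F/+ hearts. Hopx led at E16.5, with 287 ± 16.8 FPKM (SD, n = 3) in F/+ ventricles. Smyd1 and Hopx led in the 8-week +/+ cardiomyocytes, at 137 ± 14.8 and 143 ± 20.8 FPKM (SD, n = 5), with overlapping ranges. Mef2c in the same 3 groups was at 7.28 ± 2.96, 11.7 ± 1.37 and 5.49 ± 1.90 FPKM (SD, n = 3, 3 and 5).

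**Figure D1:**
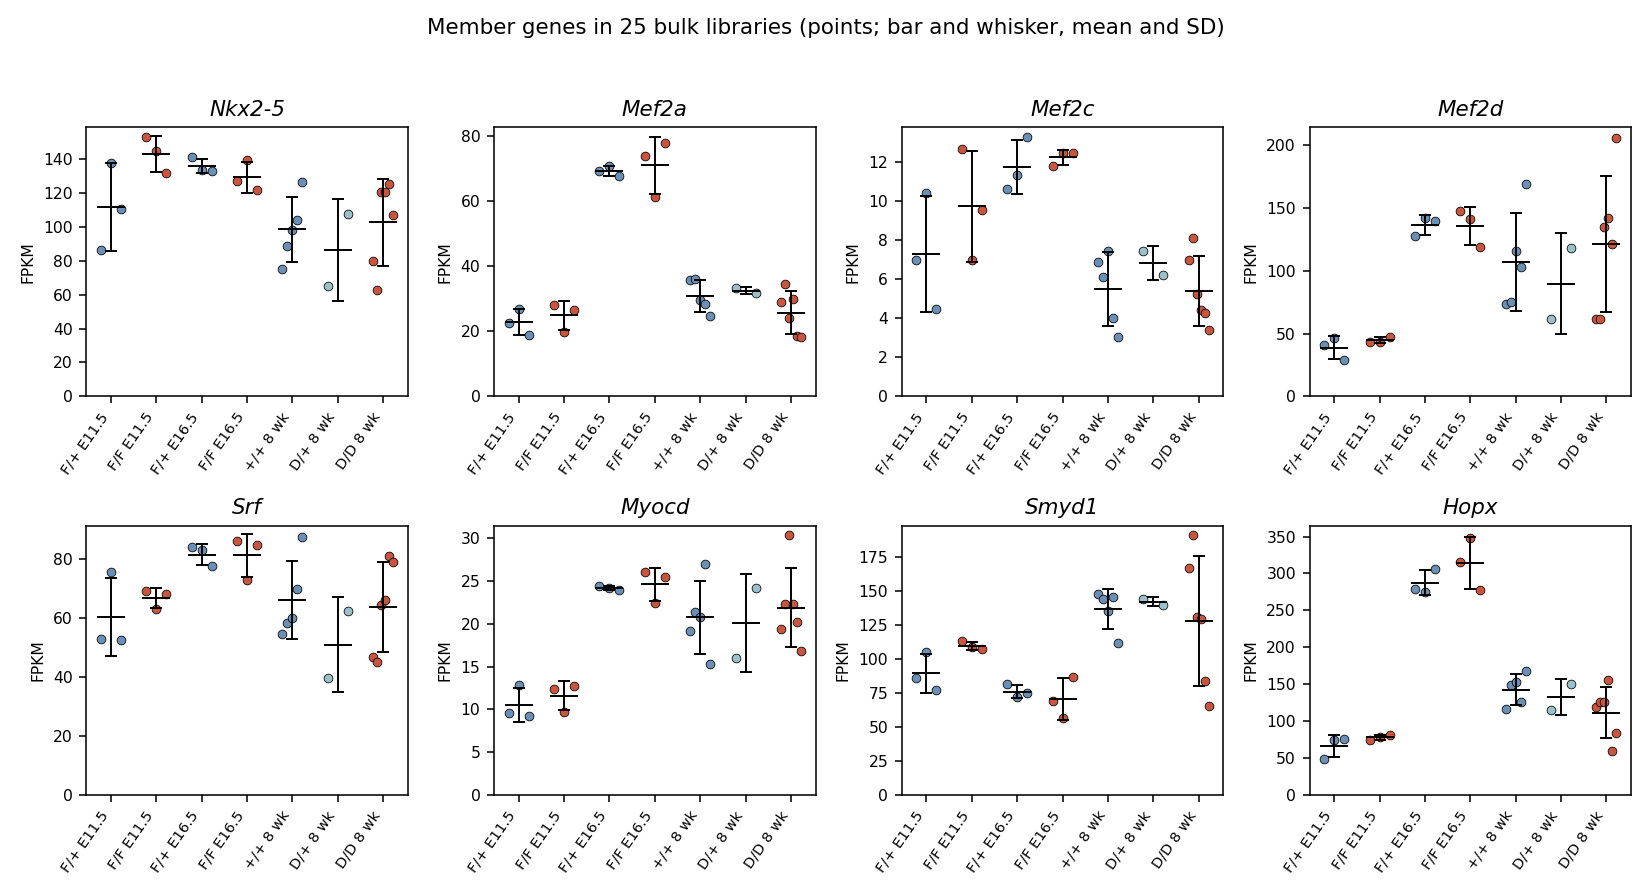
FPKM of each of the 8 genes (linear axes from 0) in the 25 bulk libraries by stage and genotype, with 1 point per library and the group mean and SD as bar and whisker. Hopx, Mef2d, Mef2a and Myocd are higher in all E16.5 libraries than in all E11.5 libraries, and Mef2d at 8 weeks spreads from 61.4 to 206 FPKM.

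Control libraries of the 3 stages were compared first, to see how each factor changed as the heart matured. From E11.5 heart to E16.5 ventricle 4 of the 8 genes rose and none fell: Hopx, Mef2d, Mef2a and Myocd. From E16.5 ventricle to 8-week cardiomyocytes Mef2a, Hopx, Mef2c and Nkx2-5 fell and Smyd1 rose. Both were taken from 1 limma fit of the 11 control libraries and share the E16.5 group, and stage is confounded with tissue (heart, ventricle, isolated cardiomyocytes) and, for the later step, with genotype (F/+ against +/+). Gapdh, a glycolytic gene active in nearly all cells, was at 0.12 to 5.09 FPKM in all 12 embryonic libraries and at 980 to 2529 FPKM in all 13 libraries at 8 weeks. Whether both sets were quantified alike is not given in the sources used here, and in the later step stage and quantification cannot be told apart. Fewer cells of a type and less RNA per cell cannot be told apart in bulk samples. At the limma threshold of an adjusted p of 0.05, 44.6% of 11485 genes were called in the earlier step (16.3% higher, 28.3% lower) and 67.4% in the later one (23.3% higher, 44.1% lower). The 4 of 8 and 5 of 8 called here are therefore shares near those of all genes called in either direction. By direction, all 4 earlier calls were rises, against 16.3% of all genes. The later calls were 1 rise and 4 falls, against 23.3% and 44.1%.

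Among the MEF2 genes, Mef2a was at 22.6, 27.0 and 18.8 FPKM in F/+ hearts at E11.5 and at 69.3, 70.9 and 67.8 FPKM in F/+ ventricles at E16.5. In 8-week +/+ cardiomyocytes it was at 35.7, 36.0, 29.7, 28.4 and 24.6 FPKM. The ventricles stood above every library of either other stage. On the log2(FPKM + 1) scale the rise was 1.58 (SE 0.18, limma adjusted p = 2.38e-05) and the later fall was -1.16 (SE 0.16, limma adjusted p = 3.58e-05).

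Mef2d was at 40.8, 46.7 and 28.7 FPKM at E11.5 and at 128, 143 and 139.9 FPKM at E16.5, a 3.53-fold rise (log2 change 1.82, SE 0.28, limma adjusted p = 2.43e-04). At 8 weeks its 5 +/+ libraries held 73.5, 75.0, 116, 103 and 169 FPKM and overlapped the E16.5 range. The later change was -0.42 (SE 0.25, limma adjusted p = 0.159). Without the library labelled +/+ replicate 5 it was -0.60 and passed (limma adjusted p = 0.0143), and under median-ratio scaling of the libraries it was 0.07.

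Mef2c was at 6.97, 10.4 and 4.49 FPKM at E11.5 and at 10.6, 11.3 and 13.3 FPKM at E16.5. The ranges narrowly did not overlap, and the change of 0.68 (SE 0.31) missed the threshold (limma adjusted p = 0.0936). It passed under median-ratio scaling (0.85, adjusted p = 0.0214), under upper-quartile scaling (0.87), without F/+ E11.5 replicate 2 (0.94) and without +/+ replicate 5 (0.68, adjusted p = 0.046). In 8-week +/+ cardiomyocytes Mef2c was at 6.86, 6.12, 7.45, 4.0 and 3.02 FPKM, all below the ventricles, and the fall of -1.02 (SE 0.28) passed (limma adjusted p = 0.00576).

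Srf, the DNA-binding partner of myocardin, was at 52.9, 75.4 and 52.3 FPKM at E11.5, at 83.8, 82.8 and 77.4 FPKM at E16.5, and at 54.4, 58.1, 59.8, 69.9 and 87.4 FPKM at 8 weeks. The earlier groups did not overlap, yet the change of 0.45 (SE 0.20) missed the threshold (limma adjusted p = 0.0817). It passed under median-ratio (0.66) and upper-quartile scaling (0.67), without F/+ E11.5 replicate 2 (0.62) and without +/+ replicate 5 (0.45). The later change was -0.32 (SE 0.18, limma adjusted p = 0.124). Without +/+ replicate 5, the highest of its group, it was -0.43 and passed (limma adjusted p = 0.0190), whereas both scalings gave it the opposite sign (0.17 and 0.04).

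Myocd was at 9.60, 12.8 and 9.21 FPKM at E11.5 and at 24.4, 24.2 and 24.0 FPKM at E16.5. It rose 2.20-fold (log2 change 1.14, SE 0.20, limma adjusted p = 5.40e-04) with no overlap between the groups. At 8 weeks it was at 19.2, 21.4, 20.8, 27.0 and 15.3 FPKM, which spans the E16.5 values. The change of -0.23 (SE 0.18) did not pass (limma adjusted p = 0.254).

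Nkx2-5 was at 86.6, 138 and 111 FPKM at E11.5 and at 141, 134 and 133 FPKM at E16.5, with overlapping ranges. The change was 0.31 (SE 0.20, limma adjusted p = 0.243), and -0.15 with homozygous libraries in place of the controls. It ran from 0.14 to 0.47 when 1 library was left out. In the 8-week +/+ cardiomyocytes Nkx2-5 was at 75.1, 88.7, 98.1, 104 and 127 FPKM, all below the ventricles. The fall of -0.48 (SE 0.18) passed (limma adjusted p = 0.0322), but this call was the least firm of the set. It was lost under upper-quartile scaling (-0.12), with homozygous libraries in place of the controls (-0.37) and without each of +/+ replicates 1 (-0.39), 2 (-0.45) and 3 (-0.49) and F/+ E16.5 replicates 1 (-0.46), 2 (-0.49) and 3 (-0.50). Under median-ratio scaling the change was 0.0065.

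Smyd1 was the only 1 of the 8 to rise in the later step. It was at 85.8, 105 and 77.3 FPKM at E11.5 and at 81.2, 71.7 and 74.7 FPKM at E16.5, a change of -0.22 (SE 0.16) that did not pass (limma adjusted p = 0.269). In 8-week +/+ cardiomyocytes it was at 148, 144, 135, 145 and 112 FPKM. All lay above the ventricles, a 1.79-fold rise (log2 change 0.84, SE 0.14, limma adjusted p = 1.95e-04).

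Hopx had the widest range of the 8. It was at 48.6, 74.2 and 75.7 FPKM at E11.5, at 279.6, 276 and 306 FPKM at E16.5, and at 117, 149, 153, 126 and 168 FPKM at 8 weeks. The 3 stages did not overlap. It rose 4.37-fold (log2 change 2.13, SE 0.19, limma adjusted p = 4.44e-06) and then fell by 1.01 on the log2 scale (SE 0.17, limma adjusted p = 1.97e-04).

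**Figure D2:**
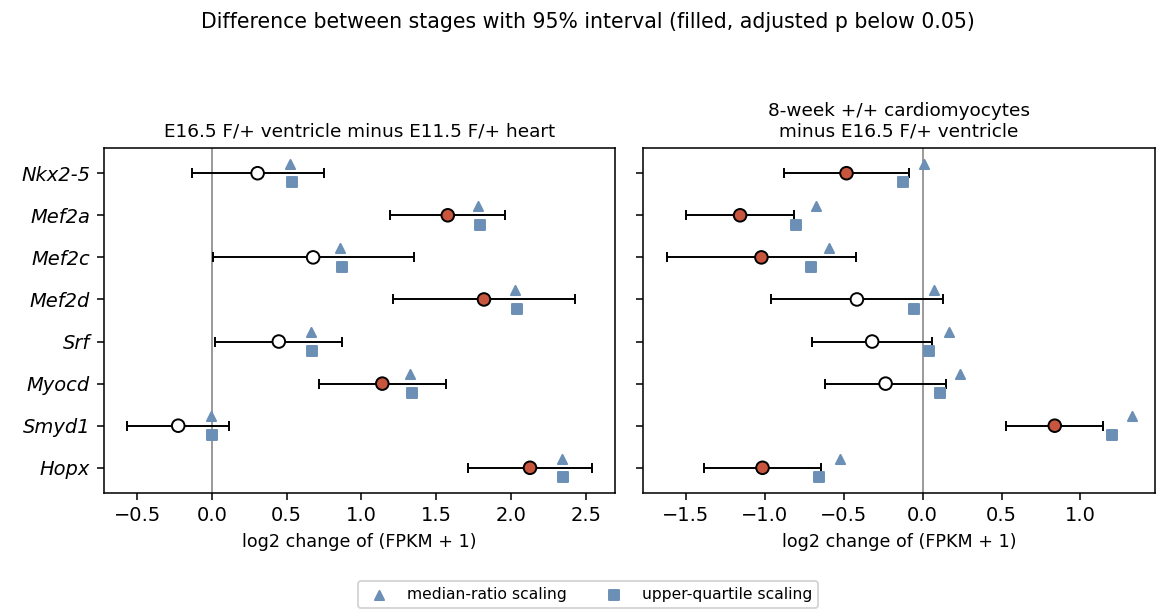
Log2 change of log2(FPKM + 1) with its 95% interval for each gene, from E11.5 heart to E16.5 ventricle and from E16.5 ventricle to 8-week cardiomyocytes in control libraries. Hopx, Mef2d, Mef2a and Myocd lie above 1 in the earlier step, and in the later step Smyd1 alone lies above 0 as deposited (triangles and squares show the change after median-ratio and upper-quartile scaling, which put Srf and Myocd above 0 as well, and median-ratio scaling Mef2d and Nkx2-5).

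Between the earlier groups 6 of the 8 genes did not overlap, all of them higher at E16.5, against 59% of all genes and 23.2% higher. Between the later groups it was 5 of 8, against 65.6%. A change above 0 was found for 7 of 8 in the earlier step and 1 of 8 in the later one, against 42.1% and 37.4%. The median over the 8 genes was 0.91 in the earlier step and -0.45 in the later one, beside -0.15 and -0.36 over all genes. Those all-gene medians depend on scaling: median-ratio scaling gave 0.03 and 0.04, and upper-quartile scaling 0.03 and -0.07. The share of called genes that were higher went from 36.5% to 51.9% and 52.4% in the earlier step, and from 34.5% to 53.1% and 47.7% in the later one. The calls of Hopx, Mef2d, Mef2a and Myocd in the earlier step held under all 17 alternatives, and those of Mef2a, Hopx, Mef2c and Smyd1 in the later step under all 16. Over these the later change ran from -1.54 to -0.52 for Hopx, from -1.46 to -0.67 for Mef2a, from -1.15 to -0.59 for Mef2c and from 0.78 to 1.33 for Smyd1, and the values nearest 0 of the first 3 came from median-ratio scaling.

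The order of the 7 groups differed between genes. For Mef2d and Myocd the E11.5 hearts lay below every later library. For Mef2a and Hopx the E16.5 ventricles lay above every other library. For Mef2a the E11.5 F/F hearts (24.8 ± 4.35 FPKM, SD, n = 3) overlapped the D/D cardiomyocytes (25.7 ± 6.57 FPKM, SD, n = 6). For Srf the E16.5 F/F ventricles did not overlap the next group by mean, the E11.5 F/F hearts. The E11.5 F/+ hearts and the +/+ and D/D cardiomyocytes did reach into the range of these ventricles. For Smyd1 the F/F and F/+ hearts at E11.5 were the only neighbours in the order without overlap, and the D/D cardiomyocytes, at 65.7 to 191 FPKM, spanned both. For Nkx2-5 and Mef2c each group overlapped the next in the order.

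Other cell types changed in share of the FPKM across the stages as well. In the earlier step all 9 erythroid and all 6 megakaryocyte markers fell, 7 of 8 epicardial markers fell, and 5 of 11 cardiomyocyte markers rose with none falling. In the later step 6 of 9 tested mesenchymal, 7 of 8 epicardial and 6 of 8 tested immune markers fell, and 5 of 11 cardiomyocyte markers rose while 4 fell. Summed mesenchymal markers went from 1225 to 1385 FPKM at E16.5 to 34.5 to 61.6 FPKM at 8 weeks, and summed erythroid markers from 39270 to 136300 FPKM at E11.5 to 131 to 299.8 FPKM at E16.5, where Hba-a2 and Hbb-bh1 were at 0. Summed smooth muscle and pericyte markers went from 1045 to 1426 FPKM at E11.5 to 394 to 424 FPKM at E16.5. The part of these cell types in the changes of the 8 genes was not tested.

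Genes that these factors are known to control moved in different ways over the same stages. Of 15 MEF2 targets, 12 rose and none fell from E11.5 to E16.5, where 16.3% of all genes rose and 28.3% fell. Ckm, the muscle creatine kinase, rose by 9.64 on the log2 scale, from 2.02 to 2313 FPKM (limma adjusted p = 3.25e-10). Myom2, an M-band protein gene, rose by 4.42 and Mb, the myoglobin gene, by 4.32. In the later step 9 MEF2 targets rose and 1, the actin-severing factor gene Cfl2, fell by 1.91, against 23.3% and 44.1% of all genes. Xirp2 rose by 4.58, Myom2 by 3.94 and Mb by 3.72, while Mef2a and Mef2c themselves fell.

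Of 15 SRF and myocardin targets, 2 rose and 7 fell in the earlier step, against 16.3% and 28.3% of all genes. The cytoskeletal genes Vcl and Tpm1 rose by 1.03 and 0.80. Tagln, a smooth muscle gene, fell by 3.80, the actin gene Acta1 fell by 2.03 and the actin gene Acta2 fell by 1.503. In the later step 7 rose and 7 fell, against 23.3% and 44.1% of all genes. The immediate early genes Fos and Egr1 rose by 6.18 and 5.58 and Acta1 by 2.01, and the calponin genes Cnn1 and Cnn2 fell by 3.83 and 2.73 while the myosin light chain gene Myl9 fell by 3.615. The same step goes from ventricle tissue to isolated cardiomyocytes, and the part of isolation in these changes was not tested.

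Of 15 Nkx2-5 targets, 4 rose and 4 fell in the earlier step, where 16.3% of all genes rose and 28.3% fell. In the later step 9 rose and 5 fell, against 23.3% and 44.1%. The troponin gene Tnni3 rose by 2.51, the ventricular factor gene Irx4 by 1.27 and the adenosine receptor gene Adora1 by 1.003 in the earlier step. The natriuretic peptide gene Nppb fell by 4.99 in the earlier step and rose by 5.62 in the later one. The myosin light chain gene Myl2 fell by 2.76 and then rose by 4.96. Id2, a repressor of basic helix-loop-helix factors, fell by 2.18 and then by 2.76. In the later step the calcium release channel gene Ryr2 rose by 3.25, the connexin gene Gja5 fell by 2.57 and Irx4 fell by 0.96. Of 18 partners and regulators, 6 rose and 3 fell, then 5 rose and 7 fell. The later counts are shares near those of all genes (23.3% and 44.1%). In the earlier step Prox1 rose by 1.55, Tbx20 by 0.82 and Elk1 by 0.67, while Hand1 fell by 1.13 and Tbx5 by 0.91. In the later step Fhl2, a cofactor of serum response factor, rose by 3.77, Naca by 1.75 and Camta2 by 1.14. Tbx20 fell by 2.51, the histone deacetylase gene Hdac2 by 1.57 and Mkl1, a relative of myocardin, by 1.54 in the later step. Median changes were 1.36 and 1.62 for the MEF2 targets, -0.72 and 0.21 for the SRF and myocardin targets, -0.09 and 1.04 for the Nkx2-5 targets, and 0.06 and -0.30 for the partners, against the all-gene medians above.

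The main question of the study is what homozygous loss of Hand2os1 changes. At E11.5 none of the 8 genes passed in F/F against F/+ hearts, where limma called 0.0087% of 11491 genes (1 gene) and 502 genes (4.37%) had an unadjusted p under 0.05, none of them among the 8. All 8 had higher means in F/F, against 52.4% of all genes above 0. The median change was 0.24, beside 0.02 over all genes.

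Nkx2-5 was at 86.6, 138 and 111 FPKM in F/+ and at 153, 145 and 132 FPKM in F/F. F/+ replicate 2 lay inside the F/F range. The change was 0.38 (SE 0.18, 95% interval -0.03 to 0.79, limma adjusted p = 0.999). Smyd1 was at 85.8, 105 and 77.3 FPKM in F/+ and at 113, 109 and 107 FPKM in F/F. It was the only 1 of the 8 whose groups did not overlap, where 9.23% of all genes did not and 4.93% were higher throughout. F/+ replicate 2 was the nearest to the F/F range. Its change was 0.30 (SE 0.16, interval -0.05 to 0.65, limma adjusted p = 0.999).

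Mef2c was at 6.97, 10.4 and 4.49 FPKM in F/+ and at 12.7, 6.99 and 9.53 FPKM in F/F, a change of 0.40 (SE 0.32, interval -0.30 to 1.11) with wide overlap. Hopx was at 48.6, 74.2 and 75.7 FPKM in F/+ and at 74.3, 78.0 and 81.5 FPKM in F/F, a change of 0.26 (SE 0.19, interval -0.16 to 0.68). F/+ replicate 1 was the single low library. The changes of Mef2d, Srf, Myocd and Mef2a lay between 0.12 and 0.23, and their upper limits between 0.56 and 0.67. Single libraries moved these values. The Nkx2-5 change was 0.21 without F/+ replicate 1 and 0.54 without F/+ replicate 2, and that of Mef2c 0.14 without F/+ replicate 3 and 0.66 without F/+ replicate 2. That of Hopx was 0.055 without F/+ replicate 1, and that of Smyd1 ran from 0.20 to 0.42. The adjusted p was 0.999 for each of the 8, and the smallest over all alternatives was 0.716, for Smyd1.

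Cardiomyocyte markers also had a higher mean sum in F/F, with overlapping ranges, but did not follow all of these values library by library. Their sum was 13220, 15770 and 12960 FPKM in F/+ and 17940, 15690 and 18720 FPKM in F/F. Of the 11 markers, 9 had higher means in F/F (median 0.23, none called). The haemoglobin share was 20.1%, 10.4% and 29.7% in F/+ and 17.0%, 10.7% and 20.1% in F/F. The F/+ library with the highest value of Nkx2-5, Smyd1, Srf, Mef2a, Mef2c, Mef2d and Myocd, replicate 2, was the one with the least haemoglobin and the highest cardiomyocyte sum of the 3 controls. In F/F the least haemoglobin was in replicate 2 as well. That library had the lowest cardiomyocyte sum of its group and the lowest Mef2a, Mef2c, Mef2d, Srf and Myocd. F/F replicate 3 had the highest sum and the lowest Nkx2-5 and Smyd1. Median changes were 0.47 for megakaryocyte markers (6 of 6 above 0), 0.46 for epithelial (4 of 5), 0.21 for endothelial (8 of 10), 0.18 for epicardial (6 of 8), -0.01 for erythroid (4 of 9), -0.17 for immune (3 of 8) and -0.28 for mesenchymal markers (1 of 9), with none called. The part of these cell type differences in the values of the 8 genes was not tested. SRF and myocardin targets had a median change of 0.24 (13 of 15 above 0), MEF2 targets 0.21 (10 of 13) and Nkx2-5 targets 0.20 (11 of 15), with none called.

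**Figure D3:**
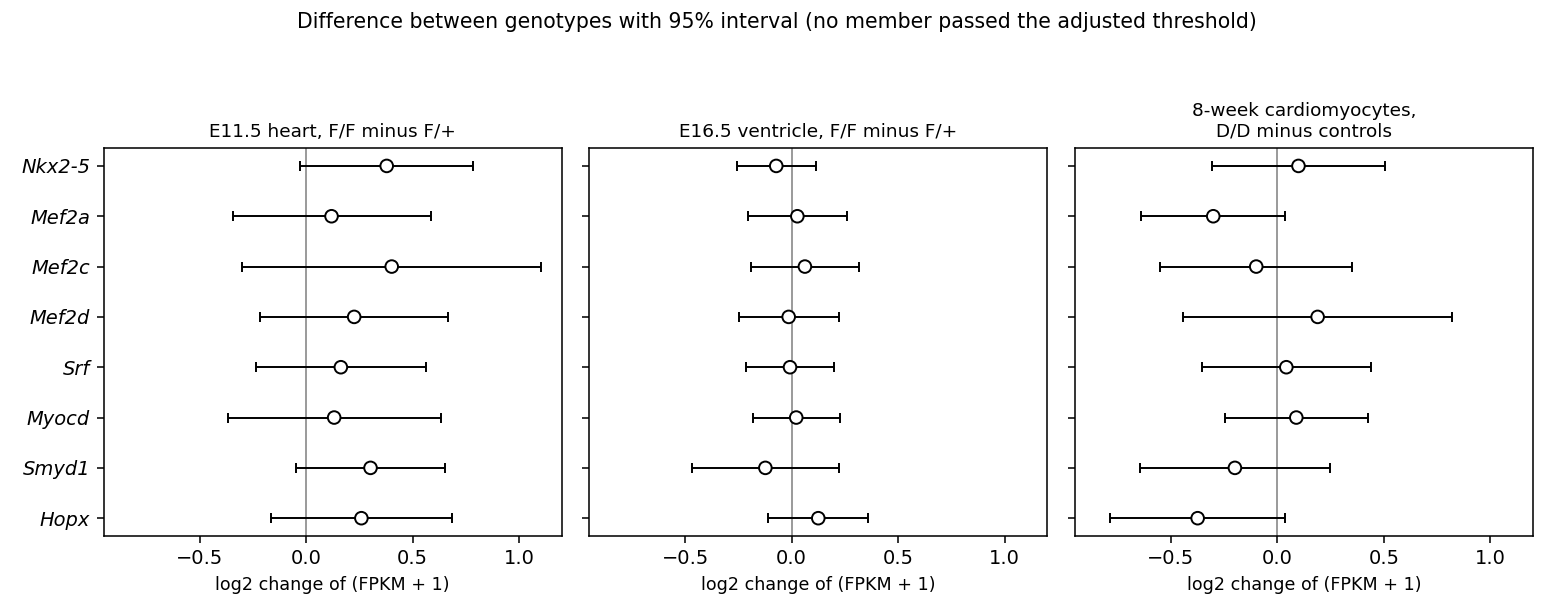
Log2 change of log2(FPKM + 1) with its 95% interval for each gene in F/F against F/+ hearts at E11.5, F/F against F/+ ventricles at E16.5, and D/D against control cardiomyocytes at 8 weeks. All 8 points lie above 0 at E11.5, and every interval in the 3 comparisons includes 0.

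At E16.5 no gene of the 8 passed either, where limma called 0.00935% of 10699 genes (1 gene) and 281 (2.63%) had an unadjusted p under 0.05, none of them among the 8. No group pair failed to overlap, against 6.78% of all genes, and 4 of the 8 had a change above 0, against 51.3%. Hopx was at 279.6, 276 and 306 FPKM in F/+ and at 316, 349 and 278 FPKM in F/F, a change of 0.12 (SE 0.10, interval -0.11 to 0.36). Smyd1 was at 81.2, 71.7 and 74.7 FPKM in F/+ and at 69.0, 56.2 and 86.3 FPKM in F/F, a change of -0.12 (SE 0.15, interval -0.47 to 0.22). Nkx2-5 was at 141, 134 and 133 FPKM in F/+ and at 127, 139.7 and 122 FPKM in F/F, a change of -0.07 (SE 0.08, interval -0.26 to 0.11). The other 5 lay between -0.01 and 0.06. The limits of their intervals were within -0.25 and 0.31. Y-linked genes reached 1 FPKM in 1 of 3 F/+ and 3 of 3 F/F libraries, so genotype and sex were largely confounded at this stage.

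The difference between the stages in the effect of F was tested as an interaction. All 8 values were below 0, against 50.7% of all genes, and none passed, where limma called 0.00875% of 11423 genes and 4.32% had an unadjusted p under 0.05. Nkx2-5 had the largest difference, -0.45 (SE 0.21, interval -0.90 to -0.002, unadjusted p = 0.0491, limma adjusted p = 0.999). Smyd1 followed with -0.43 (SE 0.22, interval -0.90 to 0.05), and Mef2c had -0.34. Single libraries moved these values. With 1 library left out they ran from -0.62 to -0.28 for Nkx2-5, -0.58 to -0.28 for Smyd1 and -0.60 to -0.08 for Mef2c. This test uses the same 12 libraries as the single-stage comparisons and is no separate support for them.

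At 8 weeks D/D cardiomyocytes were compared with the 7 controls, and limma called 0% of 10249 genes, with 175 (1.71%) at an unadjusted p under 0.05 and none of the 8 genes among them. No group pair of the 8 failed to overlap, against 0.0293% of all genes, and 4 of 8 had a change above 0, against 47.8%. Hopx had the largest change. It was lowest at 60.05, median 122 and highest 155 FPKM in D/D, and 115, 149 and 168 FPKM in the controls. The change was -0.37 (SE 0.19, interval -0.79 to 0.04, limma adjusted p = 0.9999). D/D replicates 5 and 6, at 60.05 and 83.4 FPKM, were the only libraries below the control range, and the change was -0.21 without replicate 5 and -0.30 without replicate 6.

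Mef2a was lowest at 18.3, median 26.6 and highest 34.6 FPKM in D/D, and 24.6, 31.7 and 36.0 FPKM in the controls, a change of -0.30 (SE 0.16, interval -0.64 to 0.04). Smyd1 spread from 65.7 to 191 FPKM in D/D (median 130.0) and from 112 to 148 FPKM in the controls (median 144). The change was -0.20 (SE 0.21, interval -0.65 to 0.25). D/D libraries lay on both sides of the control range, with replicates 1 and 2 above it and replicates 5 and 6 below, and leaving out 1 library gave -0.33 (D/D replicate 2) to -0.028 (D/D replicate 6). Mef2d spread from 61.7 to 206 FPKM in D/D and from 61.4 to 169 FPKM in the controls, a change of 0.19 (SE 0.30) that ran from 0.011 without D/D replicate 6 to 0.36 without D/D replicate 2. Nkx2-5, Mef2c, Myocd and Srf lay between -0.10 and 0.10. With 1 library left out Nkx2-5 ran from 0.014 to 0.23 and Mef2c from -0.22 to -0.0011.

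The 13 libraries at 8 weeks fell into sets of 5 and 8 that cut across genotype and were known from earlier results on these data, and the set of 5 held replicates 1 and 2 of both +/+ and D/D and replicate 1 of D/+. The labels name no batch. Nkx2-5 was at 62.9 to 88.7 FPKM in the set of 5 and at 98.1 to 127 FPKM in the set of 8. Mef2d was at 61.4 to 75.0 against 103 to 206 FPKM, and Srf at 39.5 to 58.1 against 59.8 to 87.4 FPKM. These 3 of the 8 genes did not overlap between the sets, against 8.41% of all genes. The genotype difference also differed between the sets. For Smyd1, D/D minus control was 0.29 within the set of 5 (2 D/D, 3 controls) and -0.43 within the set of 8 (4 and 4). For Hopx it was -0.05 and -0.57, for Mef2a -0.14 and -0.34, and for Mef2d -0.17 and 0.25. No list of partners, targets or markers had a called gene in any of these genotype comparisons.

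The single-cell libraries show which cells of the E11.5 heart hold these transcripts. They held 2563 (+/+) and 3469 (F/F) barcodes with medians of 13369 and 13403 unique molecular identifiers (UMIs), of which 2503 and 3368 cells were kept. The libraries shared 18 barcode sequences. Hand2os1 had 1 UMI in the library labelled +/+ and 9 in the library labelled F/F, which goes against the labels, so every direction below is between libraries so labelled. No test is possible with a single library of each genotype. Intervals are 95% and cover counting error only. Values are CPM, the UMIs of a class scaled to a common total, and are compared between cells and libraries, not between genes. Clusters were formed without the 8 genes.

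Cardiomyocyte-like cells, 377 of 2503 (15.1%) and 600 of 3368 (17.8%), comprised a cluster led by Myl2 (cluster 7, 293 and 502 cells) and a cluster led by Nppa, Cited1 and Nppb (cluster 16, 84 and 98 cells). In each 10 of 11 cardiomyocyte markers led. Clusters 11 (led by Rspo3 and Ankrd1, 170 and 258 cells) and 12 (led by Bmp2 and Tbx3, 12 and 21 cells) also had 10 of 11 leading, and cluster 15 (led by Shox2, 41 and 67 cells) had 7. Clusters 11 and 12 stayed unnamed because their 10 leading genes held more markers of another list than of cardiomyocytes. Cluster 15, with 7 of 11 leading, stayed unnamed as well. All are given by number.

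Among the named classes Nkx2-5, Smyd1, Myocd and Hopx were high in cardiomyocyte-like cells and near background in the others. The unnamed clusters with cardiomyocyte markers held them too: in cluster 11 Nkx2-5 was at 298 and 347 CPM, Smyd1 at 278 and 258 CPM and Myocd at 51.6 and 40.05 CPM. Cluster 17, unnamed and with no cardiomyocyte marker leading, held 3 of them at lower levels and no Hopx. There Nkx2-5 was at 78.8 and 46.3 CPM, Smyd1 at 53.5 and 56.1 CPM and Myocd at 13.4 and 12.6 CPM. Nkx2-5 was at 267 and 275 CPM in cardiomyocyte-like cells (+/+ and F/F in this order throughout) and at 2.68 and 5.70 CPM in erythroid-like cells, which should lack it. Smyd1 was at 242.5 and 201 CPM against 2.46 and 5.26 CPM, Hopx at 72.7 and 44.5 CPM against 0.217 and 0.548 CPM, and Myocd at 37.3 and 31.7 CPM against 0.651 and 0.987 CPM. In endothelial-, epicardial- and mesenchymal-like cells these 4 genes lay between 0 and 9.14 CPM. Erythroid-like values of Nkx2-5 and Smyd1 were themselves higher in F/F, so values of a few CPM are read as background and no difference between the libraries is drawn from them.

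The MEF2 genes and Srf were spread more widely. Mef2a was at 68.4 and 62.8 CPM in cardiomyocyte-like and 69.8 and 68.3 CPM in endothelial- and endocardial-like cells, with 46.2 and 41.1 CPM in mesenchymal-like and 5.57 and 5.54 CPM in erythroid-like cells. Mef2c was at 193 and 170.5 CPM in cardiomyocyte-like, 163 and 226 CPM in megakaryocyte-like, 89.7 and 71.9 CPM in epicardial-like, 64.6 and 53.0 CPM in endothelial- and endocardial-like and 1.30 and 2.69 CPM in erythroid-like cells. Its highest level was in immune-like cells, 403 and 277 CPM, from 18 and 32 cells. Mef2d was at 52.6 and 35.2 CPM in cardiomyocyte-like and 20.7 and 25.5 CPM in endothelial- and endocardial-like cells. Srf was at 61.8 and 52.1 CPM in cardiomyocyte-like, 22.3 and 17.8 CPM in epicardial-like and 17.6 and 12.3 CPM in mesenchymal-like cells.

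**Figure D4:**
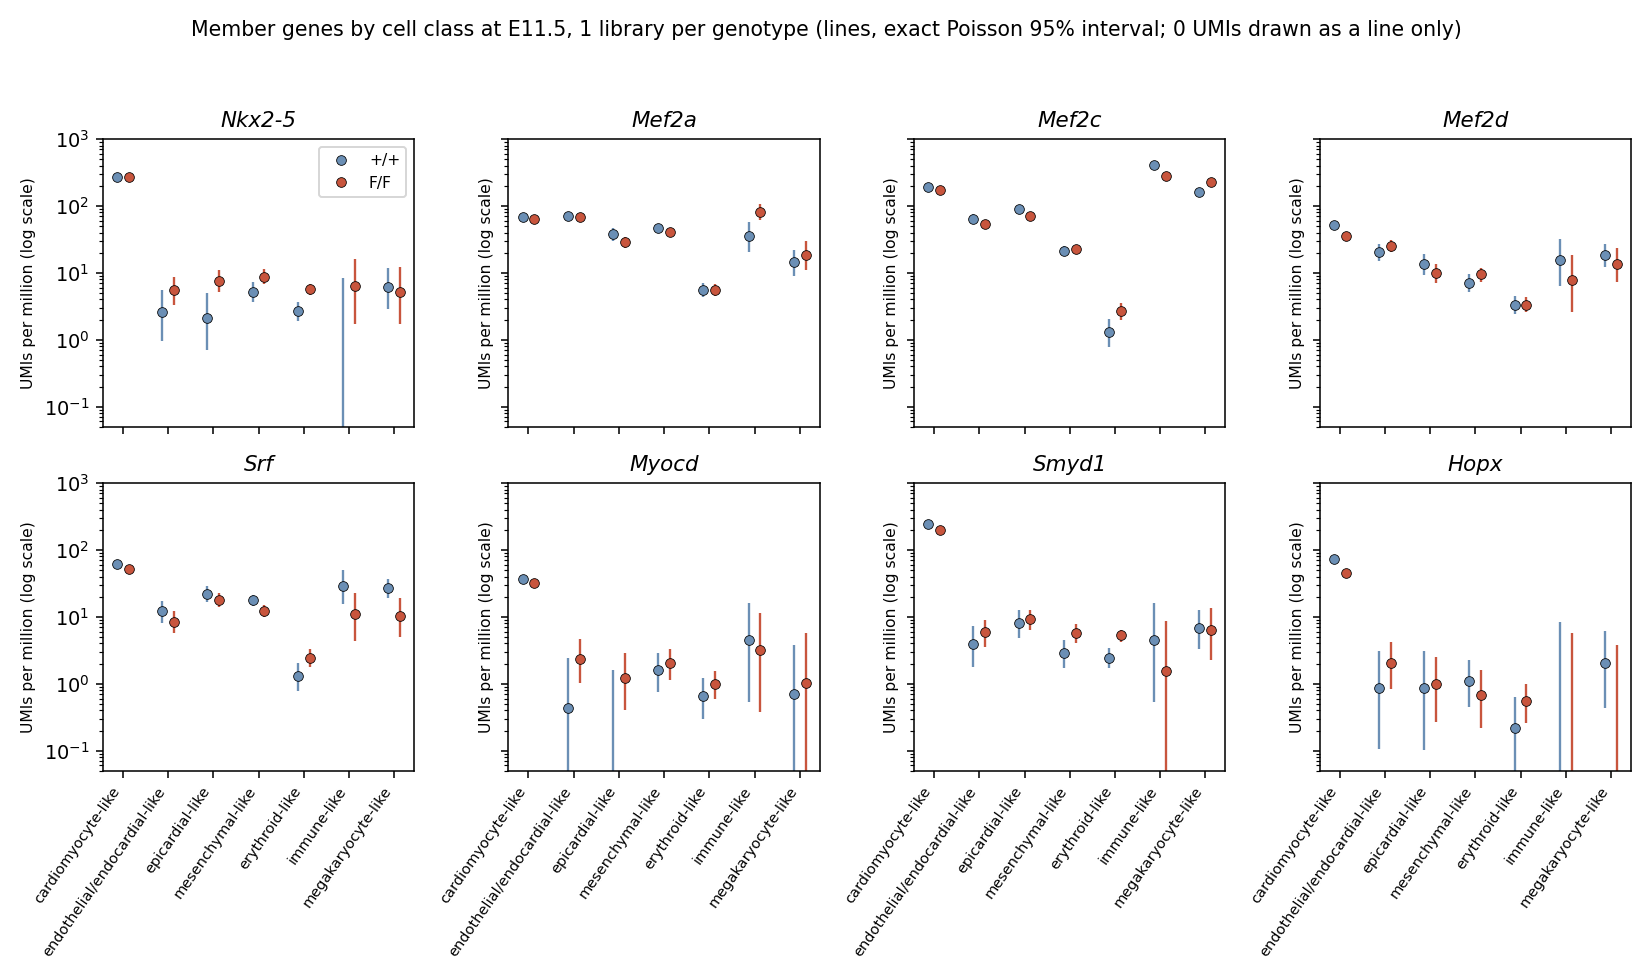
CPM of each gene by cell class in the +/+ and F/F libraries of E11.5 hearts, with 95% exact Poisson intervals. Nkx2-5, Smyd1, Hopx and Myocd are high in cardiomyocyte-like cells alone among the named classes, and Mef2a is level between cardiomyocyte-like and endothelial- and endocardial-like cells.

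Between the libraries, 7 of the 8 genes had a lower CPM in F/F cardiomyocyte-like cells, against 60.2% of the 5741 genes that reached 100 UMIs in both. Hopx was the only 1 of the 8 lower by 1.5-fold or more, against 1.27% of those genes. It was at 72.7 CPM (exact interval 66.2 to 79.8, 451 UMIs) and 44.5 CPM (40.3 to 49.1, 406 UMIs). The log2 ratio was -0.71 (-0.91 to -0.51), where the central 95% of all genes ran from -0.50 to 0.29. For Mef2d the values were 52.6 and 35.2 CPM and the ratio was -0.58 (-0.81 to -0.35), also outside that range. Smyd1 had -0.27 (-0.37 to -0.17), Srf -0.25 (-0.44 to -0.05), Myocd -0.23 (-0.49 to 0.02), Mef2c -0.18 (-0.29 to -0.07) and Mef2a -0.12 (-0.31 to 0.06). Nkx2-5 was level at 0.04 (-0.05 to 0.13). Hand2, beside the deleted gene, was at 45.2 and 85.1 CPM in the same cells.

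Clusters 7 and 16 make up the cardiomyocyte-like class, so their values are no separate support for the ratio above. Hopx was lower in F/F in these and in cluster 11, but it reached 100 UMIs in both libraries in cluster 7 alone. It was at 70.3 and 44.4 CPM in cluster 7 (log2 ratio -0.66, -0.89 to -0.44), at 79.7 and 44.9 CPM in cluster 16 (-0.83, -1.26 to -0.40) and at 31.2 and 20.0 CPM in cluster 11 (-0.64, -1.12 to -0.16). The central 95% of genes with 100 UMIs in both libraries began at -0.51, -0.43 and -0.53 in these clusters. In clusters 16 and 11 Hopx had fewer UMIs than those genes (74 in F/F in each), and its interval in cluster 11 reaches well into that range. Cluster 15 had only 7 and 10 Hopx UMIs (log2 ratio -0.26, -1.80 to 1.37), cluster 12 had 9 and 4, and cluster 17, led by Rgs5 and Eln, had none. After thinning each cell to 5000 UMIs, Hopx was seen in 32.0% (27.2% to 37.0%) and 20.1% (16.9% to 23.6%) of cardiomyocyte-like cells, against 0.228% and 0.170% of the erythroid-like class. Unthinned shares were 61.5% and 44.0% at median depths of 15824 and 15159 UMIs (erythroid-like 0.314% and 0.807%, at 10906 and 11652). Of the cardiomyocyte-like cells 11 and 27 were too shallow to thin, and of the erythroid-like 80 and 65. For Nkx2-5 the thinned shares were 70.2% and 70.2%, for Smyd1 65.6% and 62.8%, and for Mef2d 22.7% (18.5% to 27.3%) and 17.1% (14.1% to 20.4%), with intervals that overlap. Their erythroid-like shares were 1.48% and 2.21% (Nkx2-5), 1.60% and 3.32% (Smyd1) and 1.37% and 1.53% (Mef2d).

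Mef2d was lower in the same 3 clusters, with log2 ratios of -0.53 (-0.79 to -0.27) in cluster 7, -0.64 (-1.11 to -0.17) in cluster 16 and -0.44 (-0.79 to -0.08) in cluster 11. Nkx2-5 varied by cluster instead. It was at 276 and 284 CPM in cluster 7 and 242 and 238 CPM in cluster 16, with ratios near 0. It was higher in F/F in cluster 11 (298 and 347 CPM, 0.22, 0.09 to 0.35) and in cluster 15 (213 and 314 CPM, 0.56, 0.23 to 0.90), both inside the central 95% of genes, which ended at 0.35 and 0.74. It was lower in cluster 17 (78.8 and 46.3 CPM, -0.77, -1.44 to -0.12), from 53 and 33 UMIs. Smyd1 in cluster 15 was likewise higher in F/F (107 and 172 CPM, 0.69, 0.22 to 1.17), inside the same range.

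**Figure D5:**
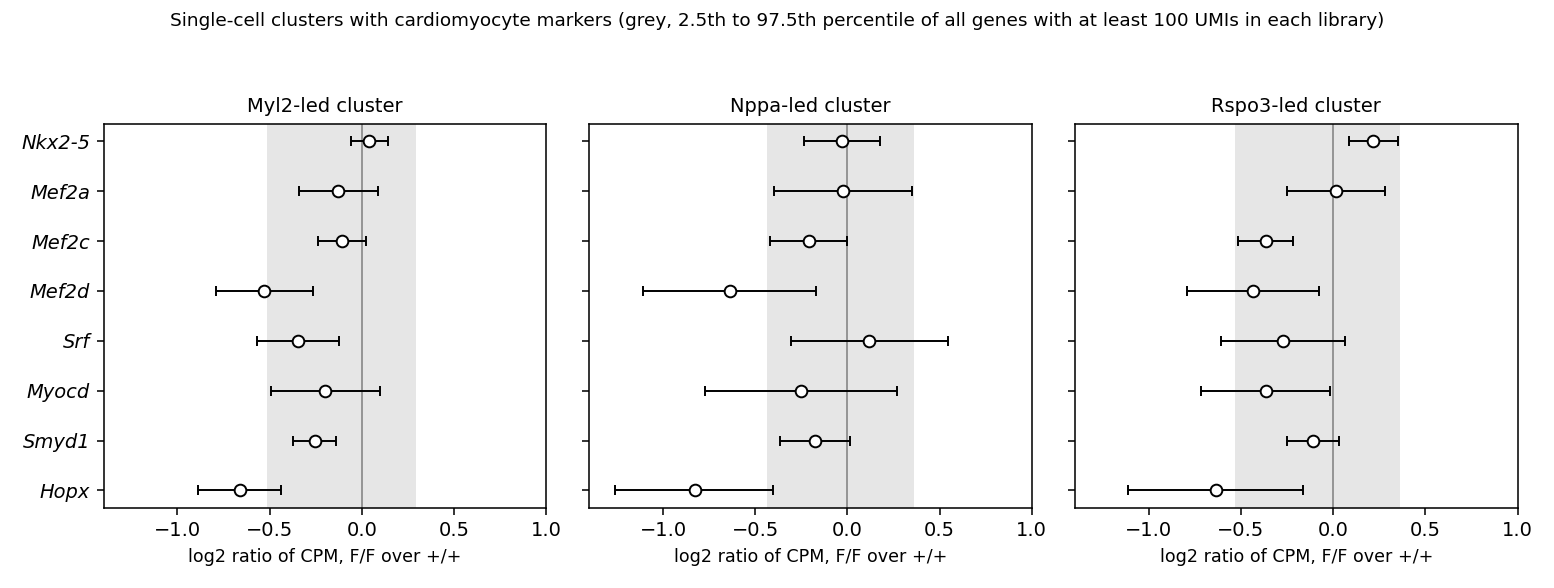
Log2 CPM ratio of the F/F over the +/+ library with its exact 95% interval for each gene in the clusters led by Myl2 (cluster 7), Nppa (cluster 16) and Rspo3 (cluster 11), over a grey band that holds the central 95% of genes that reached 100 UMIs in both. The point of Hopx lies below the band (its interval enters the band in each, and in clusters 16 and 11 it had fewer UMIs than the band's genes) and that of Mef2d below 0 in all 3 clusters, and Nkx2-5 lies above 0 in cluster 11.

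Bulk and single-cell values at E11.5 use different controls (F/+ and +/+) and are set side by side without a comparison. Over all cells Hopx was at 15.3 and 10.6 CPM (log2 ratio -0.53, -0.70 to -0.35), while in bulk F/F hearts its change against F/+ was 0.26 with an interval that includes 0. Nkx2-5 over all cells was at 73.9 and 90.8 CPM (0.30, 0.23 to 0.37), and in bulk its change was 0.38. The share of cardiomyocyte-like cells was higher in the F/F library (17.8%, exact binomial interval 16.54% to 19.15%, against 15.1%, 13.68% to 16.52%), and its part in the values over all cells was not tested.

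The genes with the most similar pattern were found by Pearson's r, as a description. The points share libraries and depth, so no p is given. Over the 25 bulk libraries, among 7355 genes averaging 5 FPKM or more, the nearest to Mef2a were Tln2 (r = 0.975) and Osbpl8 (0.956), to Mef2d Mllt6 (0.954) and Tmem201 (0.948), and to Hopx Ndrg4 (0.953) and Rapsn (0.946). Myocd was nearest to Cerk (0.927) and Adcy5 (0.914), Smyd1 to Sh3kbp1 (0.927) and Ppp1r3c (0.919), and Mef2c to Armc1 (0.912) and Rer1 (0.895). Nkx2-5 was nearest to Ahdc1 (0.905) and Chpf (0.887), and Srf to Git1 (0.880) and Ncln (0.878). Across 15 combinations of named cell class and library, among 10674 genes, Actn2 (0.993) and Csrp3 (0.987) were nearest to Nkx2-5, and Xirp1 (0.981) and Rbm20 (0.976) to Smyd1. Hopx was nearest to Fam189a2 (0.983) and Trim54 (0.982), Myocd to Asb2 (0.967) and Rrad (0.955), and Mef2c to Pctp (0.964) and Arl6ip5 (0.964). Mef2a was nearest to Eogt (0.959) and Itm2c (0.947), Mef2d to mt-Co3 (0.943) and Svil (0.939), and Srf to Rhot2 (0.941) and Otud4 (0.933).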

How the data were processed

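Bulk poly(A) RNA was profiled in 25 libraries and single-cell RNA in 2. The deposited bulk values carry no unit in the header and were taken as FPKM from their values. The deposited single-cell table holds UMI counts. The submitters' processing notes name CASAVA, TopHat, TopHat2 2.0.11 and Cell Ranger, and the builds mm9 and mm10. Counting settings and strand handling were not given in the sources used here. Of 24525 bulk lines, 769 were identical repeats of 270 symbols, each kept once, and 1 gene lacked a value and was dropped. Bulk depth is unknown.

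Groups followed the labels. FPKM were tested as log2(FPKM + 1) with limma 3.58.1 (R 4.3.3, trend, two-sided) over all genes averaging 1 FPKM or more in a fit's libraries, with Benjamini-Hochberg adjustment at 0.05. A fold on this scale understates changes of low genes. All 8 genes passed that filter in every comparison. The genes named from the lists of partners and targets were the 3 called genes with the largest change in each direction, among those averaging 5 FPKM or more. Genes named as most alike were the 2 with the highest Pearson's r. The 8 genes and the lists were chosen with earlier results of these data known. The code was tested on simulated data.

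Cells with at least 500 genes were clustered with scanpy 1.11.5 (Python 3.11.15; 2000 variable genes without the 8, Hand2, Hand2os1 and sex-linked genes; 30 components; 15 neighbours; Leiden resolution 1.0). Scrublet marked 2 and 20 barcodes, so the 52 and 96 with the highest scores were removed, a share set by the barcode count. A cluster was named where at least 3 markers, and a set majority, of a list led it, unless its 10 leading genes held more markers of another list. A share of 7 of 11, as in cluster 15, was not named. Counts were summed per class and library, with exact Poisson and binomial 95% intervals (scipy 1.17.1). These cover counting error only. Alternatives changed the pseudocount, filter, library scaling, libraries used, replicate block, a Y-linked covariate, the fit's samples, and the cell filter, doublets, resolution and CPM total. Promoter letters and names came from RefSeq (GRCm38.p6).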

Additional observations from a re-analysis of the deposited data

How the results depend on the processing

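No call of the 8 genes in a genotype comparison appeared under any alternative. At E11.5 the count of called genes went from 1 to 24 with all 25 libraries in a single fit and to 2 with a Y-linked covariate, and was 1 to 2 when each library was left out. At E16.5 it went to 2 with a pseudocount of 0.1 and 3 with the covariate, with 0 to 2 on leaving libraries out. For the difference between stages it went to 3 without a filter and 2 with a pseudocount of 0.1, with 1 to 9 on leaving libraries out (9 without F/+ E11.5 replicate 3). The 8-week count was 0 throughout. Same-numbered samples did not vary together throughout (r from -0.036 to 0.082 at E11.5, -0.435 to 0.042 at E16.5 and -0.423 to 0.528 at 8 weeks), so the replicate block rests on a number only. The block gave 2 called genes at E11.5, 1 at E16.5, 1 for the difference, 0 at 8 weeks and 5661 in the earlier stage step, where Srf passed.

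Directions turned as follows. The block gave Mef2c 0.088, Mef2d -0.13, Nkx2-5 -0.016, Smyd1 0.033 and Srf -0.11 at 8 weeks, where Srf was -0.067 against +/+ alone and -0.00972 with a term for the library sets. The covariate gave Mef2a -0.0027 at E16.5. In the earlier step Nkx2-5 was -0.15 in homozygous libraries and Smyd1 0.0017 under upper-quartile scaling. In the later step median-ratio scaling gave Mef2d 0.073, Myocd 0.24, Nkx2-5 0.0065 and Srf 0.17, and upper-quartile scaling Myocd 0.11 and Srf 0.039. Leaving out 1 library gave these ranges: at E11.5 Mef2a -0.0046 to 0.27; at E16.5 Mef2a -0.043 to 0.13, Mef2c -0.0028 to 0.15, Mef2d -0.076 to 0.079, Myocd -0.019 to 0.085, Smyd1 -0.28 to 0.026 and Srf -0.051 to 0.068. At 8 weeks it gave Myocd -0.0065 to 0.16 and Srf -0.058 to 0.13, and for the difference Hopx -0.24 to 0.070 and Mef2a -0.24 to 0.031. The cause was not tested. Of the alternative single-cell ratios 289 stayed within their interval and 3 did not, for Nkx2-5 in erythroid-like and Mef2c in immune-like cells.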

Other observations

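Mef2c had the lowest FPKM of the 8 genes in bulk F/F hearts at E11.5, 9.73 ± 2.84 (SD, n = 3), and in the F/F single-cell library it had 76.7 CPM over all cells, from cells of several classes. Hopx had 77.9 ± 3.58 FPKM (SD, n = 3) in the same hearts and 10.6 CPM over all cells, of which nearly all came from cells with cardiomyocyte markers. FPKM is scaled by transcript length and CPM of UMIs is not, so the orders cannot be set against each other.

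Cluster 12, led by Bmp2 and Tbx3 with 12 and 21 cells, had the highest Nkx2-5 and Mef2a of the clusters described, at 522 and 595 CPM and at 169 and 187 CPM in the +/+ and F/F libraries. In cluster 15, led by Shox2, Srf was at 41.0 and 68.4 CPM with a log2 ratio of 0.74 (-0.02 to 1.55), against -0.35 in cluster 7.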
